A study of Caenorhabditis elegans with 2 samples.

Results

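LIN-15B peaks on the X chromosome of the nematode Caenorhabditis elegans were taken from a chromatin immunoprecipitation (ChIP-seq) experiment in whole L3 larvae. The animals were of strain OP184, genotype unc-119(tm4063) III; wgIs184, in which an integrated transgene expresses LIN-15B fused to eGFP, and the fusion protein was the target of the immunoprecipitation. Per the labels, males and females were pooled. The series has 1 group with 2 biological replicates, and no wild-type, untagged or other animals enter here, so the contrast is between chromosomes of the same animals. The transgene adds copies of sequence from the lin-15B locus, which lies on X, and transgenes of this kind carry a rescuing copy of unc-119, a gene of chromosome III. The members were all peaks on chromosome X in the deposited list that passed the irreproducible discovery rate (IDR), a measure of how well peak ranks repeat between replicates. They numbered 343 of 3331, and the 2988 peaks on the 5 autosomes served as the contrast. Positions are on build ce11, 1-based, and the summit is the point the authors gave for each peak.

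LIN-15B is a THAP-domain zinc-finger protein of the synMuv B group, whose members act in vulval development and in repressing germline genes in somatic tissue. X is the chromosome that hermaphrodites carry as a pair and males as a single copy. In hermaphrodites a dosage compensation complex lowers transcription along both copies of X, and it is loaded at recruitment elements on X (rex sites) that share a sequence motif with the core CGCAGGG. X carries few genes of the germline and of the most general cell functions compared with the autosomes.

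The windows of the 7 highest X peaks that overlap no annotated UTR are shown first, to let the base composition of strong X summits be read directly. Each runs 50 bp to either side of the summit, 5′ to 3′ on the plus strand of ce11, from the RefSeq sequence of assembly WBcel235. Capitals mark, on either strand, those of the 12 motifs searched that differed between X and autosomes. In these windows they are the repeat GAGAGA and the CA repeat ACACAC, and a window with none is in lower case throughout.
puf-9 (chrX:5841261-5841361, plus strand): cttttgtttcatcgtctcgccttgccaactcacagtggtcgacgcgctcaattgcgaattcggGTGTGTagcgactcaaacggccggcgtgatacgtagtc
lin-15B upstream (chrX:15725122-15725222, plus strand): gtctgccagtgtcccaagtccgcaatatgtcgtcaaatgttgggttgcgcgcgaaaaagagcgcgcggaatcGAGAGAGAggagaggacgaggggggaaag
glit-1 and dnj-14 (chrX:4712048-4712148, plus strand): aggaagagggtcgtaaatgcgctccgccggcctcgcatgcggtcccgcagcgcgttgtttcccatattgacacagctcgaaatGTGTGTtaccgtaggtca
rpl-11.2 (chrX:2242943-2243043, plus strand): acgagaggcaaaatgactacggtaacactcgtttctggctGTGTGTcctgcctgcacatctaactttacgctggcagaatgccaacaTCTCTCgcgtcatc
trap-2 and ile-2 (chrX:768226-768326, plus strand): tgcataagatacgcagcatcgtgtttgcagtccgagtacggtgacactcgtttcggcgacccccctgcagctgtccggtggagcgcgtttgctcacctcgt
serp-1.1 (chrX:15841217-15841317, plus strand): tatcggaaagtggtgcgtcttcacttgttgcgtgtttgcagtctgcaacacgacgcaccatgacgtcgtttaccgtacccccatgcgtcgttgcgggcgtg
hsp-3 (chrX:6092129-6092229, plus strand): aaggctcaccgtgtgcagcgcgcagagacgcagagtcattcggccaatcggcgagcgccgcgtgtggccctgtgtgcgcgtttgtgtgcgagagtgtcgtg

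A second set is shown because it holds the core of the rex motif, CGCAGGG, in capitals, with 12 bases to each side. These are the matches within 50 bp of an X summit that overlap no annotated UTR, each read 5′ to 3′ on the strand of the match and named by the gene with the nearest annotated 5′ end. In most of them the letters just before the capitals are tcg.
gtr-1 (chrX:806663-806693, plus strand): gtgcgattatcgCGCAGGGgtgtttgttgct
W02H3.3 (chrX:11094113-11094143, minus strand): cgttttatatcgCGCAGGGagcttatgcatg
Y41G9A.17 (chrX:2997111-2997141, minus strand): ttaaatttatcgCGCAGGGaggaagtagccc
nspc-17 (chrX:14525888-14525918, minus strand): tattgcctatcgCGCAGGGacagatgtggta
nhr-48 (chrX:15707626-15707656, minus strand): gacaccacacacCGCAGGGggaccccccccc
F20B6.9 (chrX:4209254-4209284, minus strand): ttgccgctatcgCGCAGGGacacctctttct
F55G7.5 (chrX:11937530-11937560, plus strand): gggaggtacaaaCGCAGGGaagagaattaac
ins-39 (chrX:1345045-1345075, plus strand): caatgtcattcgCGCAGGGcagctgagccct
xol-1 (chrX:8036389-8036419, minus strand): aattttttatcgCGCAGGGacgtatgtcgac
xol-1 (chrX:8036424-8036454, plus strand): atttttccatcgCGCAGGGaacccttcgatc
gcc-1 (chrX:3159714-3159744, minus strand): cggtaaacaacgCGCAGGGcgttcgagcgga
col-185 (chrX:13514547-13514577, plus strand): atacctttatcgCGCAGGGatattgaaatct
apm-3 (chrX:954899-954929, minus strand): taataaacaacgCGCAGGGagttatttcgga

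In the 3331 peaks of the IDR list, X was thinly covered. It held 19.4 peaks per Mb, against 36.2 per Mb on the autosomes, a ratio of 0.535. The autosomes ranged between 22.7 per Mb on chromosome V and 50.3 per Mb on chromosome III, so X was below each of them. Per 1000 protein-coding genes X had 125.6 peaks, against 173.3 on the autosomes, and by that measure chromosome V, with 95.1, was below X. X has 154.1 protein-coding genes per Mb, against 208.9 on the autosomes.

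X was short of peaks at the top of the deposited ranking and not near its end. In the pooled list of 30000 peaks, called on both replicates together and ranked by the authors' signal, X held 285.8 peaks per Mb, against 302.1 on the autosomes. That list and the list of each replicate are labelled as peaks and background for input to IDR, so an entry far down need not be a site of binding. X is 17.7% of the genome. It held 3 of the highest 100 pooled peaks, 6.6% of the highest 1000, and 10.3% of the IDR list (95% exact Clopper-Pearson interval 9.29 to 11.4%). Among ranks 3332 to 5000, just past the IDR list, X held 16.2%, and in each later stretch of 5000 ranks it held between 17.6 and 18.1%. Each replicate alone had the same course, with X at 7% of the highest 1000 peaks in replicate 1 and 6.4% in replicate 2, and at 16.5% and 17.4% of their whole lists.

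**Figure D1:**
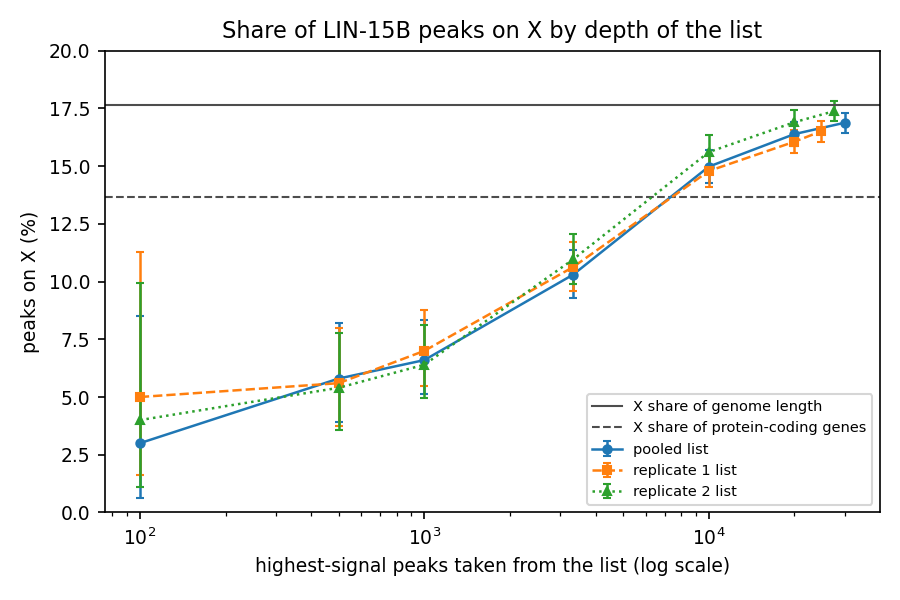
Share of peaks on X (y axis, %) among the highest-signal peaks of a list (x axis, number of peaks, log scale) in the pooled list and in the list of each replicate, with 95% exact intervals that cover counting error only. Horizontal lines give the X share of genome length and of protein-coding genes. In all 3 lists the share is lowest at the top and comes near the share of genome length, 17.7%, by the end of the list.

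Of the pooled peaks on X, 343 of 5064 (6.77%, interval 6.10 to 7.50%) were on the IDR list, against 2988 of 24936 (11.98%) on the autosomes, where single chromosomes ranged from 9.22 to 13.9%. Over all chromosomes 11.1% of pooled peaks were on the IDR list. By the deposited signals that list is the 3331 highest pooled peaks. These shares therefore describe a cut on signal, and restate the X share above rather than add a separate result. The difference was -5.21 percentage points (two-sided Fisher's exact test, adjusted p = 5.12e-29 over the 6 comparisons of this family), and -2.45 points against chromosome V alone. Peaks are not replicates, so these tests cover counting error among peaks, not variation among animals.

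Within the IDR list, in the same ranking by signal, the X peaks were of lower signal than the autosomal ones. Their median signal in the pooled list was 43.7 (quartiles 30.2 and 68.2, highest 596.4), against 54.7 on the autosomes (quartiles 33.4 and 102.6, highest 1189), and the medians of single autosomes lay between 51.7 and 56.2. Among the 1665 IDR peaks with the highest signal were 127 of the 343 X peaks (37.0%), against 51.5% of autosomal peaks, which is -14.4 points (Fisher's exact test, adjusted p = 4.63e-07), with single autosomes between 48.7 and 53.5%. At the end of the list, the last X peaks inside had F46H5.4, B0302.2 (2892 bp away) and egl-17 as nearest genes, with signals of 22.7 each. The first X peaks outside had got-1.2, K02A6.3 and Y7A5A.24 (2428 bp away) as nearest genes, with signals of 22.6, 22.5 and 22.4.

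Of the 20 highest X peaks, 17 had their summit in a promoter window, defined as 500 bp upstream to 200 bp downstream of the 5′ ends annotated for protein-coding transcripts. The highest was 281 bp upstream of puf-9, which encodes a Pumilio-family RNA-binding protein, with a signal of 596.4 in the pooled list, 275.5 in replicate 1 and 319.9 in replicate 2. It ranked 28 among all 3331 peaks, and all peaks above it were autosomal.

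These genes are named by rank, and their functions were not counted over all genes. A peak of 385.1 in the pooled list (184.4 in replicate 1, 202.9 in replicate 2) lay 8 bp upstream of pdi-6, a protein disulfide isomerase. A peak of 339.1 (168.5 and 175.6 in replicates 1 and 2) lay in the shared window of trap-2, a subunit of the translocon-associated protein complex, and ile-2. The chaperone gene hsp-3, of the BiP family, had a peak of 290.6 (125.6 and 168.4), which had the highest GC content of the 20 summit windows, 65.3%. These 3 peaks were higher in replicate 2 than in replicate 1, as were 19 of the 20.

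The peak at rpl-11.2, a large-subunit ribosomal protein gene, had a pooled signal of 340.4 (137.7 in replicate 1, 203.2 in replicate 2). The peak at eef-1A.2, which encodes a translation elongation factor, had 241.3 (113.1 and 126.6). The genes asb-2 and asg-2, for subunits of the mitochondrial ATP synthase, had peaks of 276.6 and 272.0, the second in a window shared with the glutamate receptor gene glr-6. The others among the 20 were at glit-1 with dnj-14 (349.4), serp-1.1 (327.8), sym-4 (267.0), ZC506.1, F16B12.6, F02C12.3, the kinesin-like gene klp-13, F53H4.4 with csb-1, the BET bromodomain gene bet-2 (190.6), and, outside any promoter window, tmem-184 (207.5).

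The lin-15B locus held 6 X peaks within 40000 bp of the gene, and 2 of them were among the 20 highest on X. One, 951 bp upstream of the lin-15B start at chrX:15725043-15725310, had a signal of 425.9 in the pooled list, 181.9 in replicate 1 and 246.1 in replicate 2. The other lay over the tRNA gene ZK678.t1, with 245.3, 108.3 and 134.0. In the lin-15B promoter window itself, 357 bp upstream, the peak had 95.8 in the pooled list, 39.5 in replicate 1 and 55.6 in replicate 2. The remaining 3 were near nhr-48 (51.3), srg-64 (62.8) and srxa-9 (28.1), and lin-15A had no summit in its window. Since the transgene adds copies of this locus, true occupancy and copy number cannot be told apart here. Without the 6, the median signal of the other 337 X peaks was 43.6.

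The signals of the replicates had a looser relation at X peaks than at autosomal peaks. The IDR list was chosen by how peak ranks repeat between these same replicates, and it holds the highest pooled peaks by signal. Overlap with both replicate lists was therefore built in and is given as a description only. Of the 343, 341 overlapped a peak of the replicate 1 list and 343 a peak of the replicate 2 list. The exceptions, absent from replicate 1, were nearest to fbxa-141 (26.5 in the pooled list, 20.99 in replicate 2) and set-8 (23.3 and 18.0). The median signal was 19.6 in replicate 1 and 24.1 in replicate 2. The median log2 ratio of replicate 2 to replicate 1 was 0.31 (SD 0.63 over peaks) on X, against 0.26 (SD 0.59) on the autosomes, which ranged from 0.22 to 0.29. That difference between X and autosomes was far smaller than the spread over peaks. The signal was higher in replicate 2 at 238 X peaks and in replicate 1 at 103. Across X peaks the Spearman correlation of the replicates was 0.729, against 0.855 across autosomal peaks, given as a description since the X peaks span a narrower range of signal. Among the highest 3331 peaks of both replicate lists were 262 X peaks (76.4%), against 82.3% of autosomal peaks. The widest disagreements were gcc-1 (4.81 in replicate 1, 22.5 in replicate 2) and ZK899.6 (21.3 and 4.61).

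**Figure D2:**
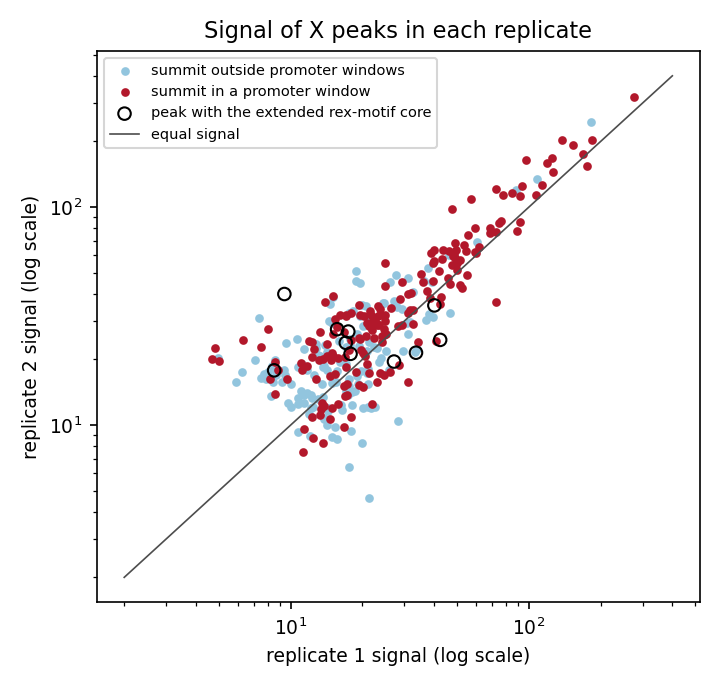
Signal of the 341 X peaks found in both replicates, replicate 1 on the x axis and replicate 2 on the y axis, both log scales, with colour for summits in or outside promoter windows. Most points, 238, lie above the line of equal signal, and the circled peaks, with the core of the rex motif preceded by TCG, lie among the middle and low signals on both sides of it.

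Fewer X summits lay at promoters and more lay between genes. On X 183 of 343 summits (53.4%, interval 47.9 to 58.7%) were in promoter windows, against 64.1% on the autosomes, where chromosomes ranged from 61.6 to 68.0%. The share over all IDR peaks was 63%. The difference was -10.7 points (Fisher's exact test, adjusted p = 0.000281 over 7 classes). Promoter windows make up 13.4% of the X sequence and 17.0% of autosomal sequence, so relative to the sequence the summits were 3.99 times denser there on X and 3.77 times on the autosomes. Intergenic summits were 103 on X (30.03%), against 20.1% on the autosomes, +9.88 points (exact test, adjusted p = 0.000166). Intergenic sequence is 34.6% of X and 24.3% of the autosomes, which gives ratios of 0.868 and 0.829. Introns held 30 X summits (8.75%), against 11.8% of autosomal ones, a difference that did not pass the exact test (adjusted p = 0.158). Coding exons held 1 X summit, in mom-1, and the 5′ and 3′ UTR classes held none, which allows a share of up to 1.07% (exact interval).

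**Figure D3:**
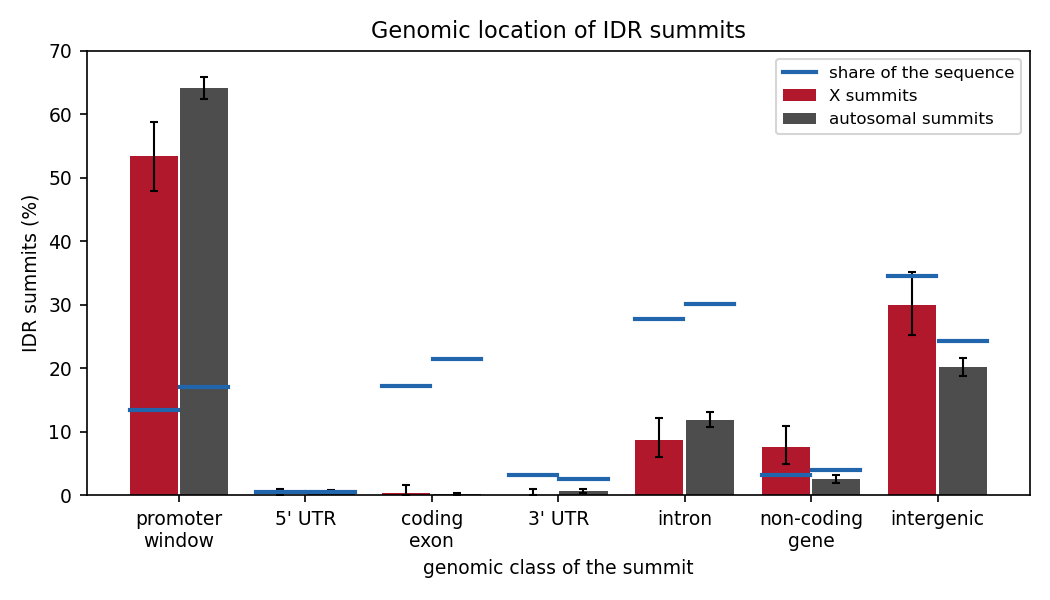
Share of IDR summits (y axis, %) in each genomic class for X and for the autosomes, with 95% exact intervals that cover counting error only, and blue lines for the share of the sequence in each class. Promoter windows hold 53.4% of X summits and 64.1% of autosomal ones, and in both the bar stands far above the share of the sequence, while intergenic summits stay near it.

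By signal, the promoter difference passed the threshold in the weakest peaks only. In 5 groups of nearly equal size by signal, from the highest to the lowest, the promoter share on X was 89.5, 66.0, 61.2, 45.7 and 29.1%, against 85.9, 73.1, 64.7, 47.7 and 46.9% on the autosomes. The lowest group had the difference past the threshold (-17.8 points, Fisher's exact test, adjusted p = 0.0118 over the 5 groups). In the 1665 peaks with the highest signal the promoter difference was -4.81 points (exact test, adjusted p = 0.478) and the intergenic difference +6.89 points (adjusted p = 0.354). With promoter windows of 1000 bp upstream they were -6.05 and +5.35 points over all peaks. Whether the groups differ from each other in this difference was not tested. Median signal on X was 52.2 in promoter windows, 36.6 between genes and 33.7 in introns.

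Non-coding genes, here all annotated genes that are not protein-coding, held 26 X summits (7.58%), against 2.54% of autosomal summits. The difference was +5.04 points (Fisher's exact test, adjusted p = 4.84e-05). This class, not limited to RNA genes, is 3.21% of the X sequence and 3.94% of autosomal sequence. Of the 26 X summits 11 overlapped a tRNA gene, 17 an annotated ncRNA, 1 a snoRNA and 1 a miRNA, the heterochronic gene let-7. Most were weak: the highest was ZK678.t1 of the lin-15B locus at 245.3, followed by F45B8.9 at 105.2 and Y15E3A.13 at 73.8. The difference did not pass the test in the 1665 highest peaks (+1.52 points, exact test, adjusted p = 0.478) or against chromosome V alone (+3.79 points, adjusted p = 0.0626). It was +2.82 points without replicate 1. Counted by gene, tRNA genes went the other way. A summit lay in the window at the 5′ end of 37 of 276 on X (13.4%), against 68 of 336 on the autosomes (20.2%). The shares of miRNA and snoRNA genes, given below, were also lower on X.

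X summits lay somewhat farther from annotated 5′ ends, on a chromosome with 154.1 protein-coding genes per Mb, against 208.9 on the autosomes. Whether the distance differs beyond gene density was not tested. The median distance to the nearest annotated 5′ end was 381 bp, against 263 bp on the autosomes, with single autosomes between 239 and 291 bp. Most were upstream of it, 81.0% on X and 83.0% on the autosomes, and 14 X summits (4.08%) were farther than 5 kb, against 2.44%. Trans-splicing of C. elegans transcripts can place an annotated 5′ end some way below the true start of transcription. The 343 peaks had 323 different nearest genes, and 20 genes were nearest to 2 peaks each.

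Promoter peaks on X were seldom shared by neighbouring genes. Of 183 promoter summits, 20 (10.9%) lay in the windows of 2 genes and none in those of more, against 31.3% of autosomal promoter summits in the windows of 2 or more. The difference was -20.4 points (Fisher's exact test, adjusted p = 8.25e-10), and single autosomes ranged from 27.6 to 36.4%. Of the bases in promoter windows, 2.43% on X and 6.48% on the autosomes belong to more than 1 gene, so the windows themselves overlap less on X.

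Peaks on X stood far apart, on a chromosome with 19.4 IDR peaks per Mb, against 36.2 on the autosomes. Fewer peaks per Mb give wider spacing by themselves, and a difference in spacing beyond that was not tested. The median gap between neighbouring summits was 31868 bp, against 15287 bp on the autosomes, and the median distance to the nearest summit was 15266 bp, against 6612.5 bp, with single autosomes between 5508 and 9945 bp. Another summit within 2 kb was present for 26 X summits (7.58%), against 18.8% of autosomal summits, -11.3 points (Fisher's exact test, adjusted p = 2.83e-08, no autosome below 17.3%). Those 26 formed 13 pairs and no larger group. One pair was at the lin-15B start, 594 bp apart. Another joined the hsp-3 peak of 290.6 to a peak of 27.4 at C15H9.5, 895 bp away. The closest pair, 437 bp apart, lay between genes (24.0 and 29.6). Its nearest gene was the trehalose synthase gene tps-1, with the summits 5366 and 5803 bp upstream. The widest gap on X was 264930 bp near the left end, between summits at 59293 and 324223, and it held 27 protein-coding genes.

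Along X the peaks were spread over the whole length. Each 1-Mb stretch held between 12 and 30, the last, shorter one 13, and the fullest lay between 14 and 15 Mb. Split into 3 stretches of equal length, the left held 108, the middle 101 and the right 134 peaks, or 124, 103.4 and 151.8 per 1000 protein-coding genes. The right had 135 and 136 of the highest 3331 peaks of replicates 1 and 2, again the most of the 3. There 44.0% of summits were in promoter windows, against 59.3% in the left and 59.4% in the middle, and 38.1% were intergenic. The 3 stretches were not tested against each other.

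Few genes of X were bound, counting a gene as bound when an IDR summit lay in its promoter window. There were 201 of 2731 (7.36%), against 14.4% on the autosomes and 13.4% of all 19973 protein-coding genes. Against chromosome V alone, with 8.29%, the difference was -0.93 points and did not pass the test (Fisher's exact test, adjusted p = 0.159).

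All 3 X members of the list of aminoacyl-tRNA synthetases and translation factors were bound, eef-1A.2 (241.3), and the cap-binding eIF4E genes ife-2 (49.2) and ife-4 (24.5). Of 3 vacuolar ATPase subunits, vha-12 (163.6) and vha-15 (96.7) were bound. One of 2 ribosomal protein genes was, and the proteasome list has no member on X. These lists are small on X, so the counts describe single genes, and the autosomal shares were 64.7% of aminoacyl-tRNA synthetases and translation factors together, 55.6% of vacuolar ATPase subunits and 86.2% of ribosomal protein genes.

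Beside the 7.36% of all X genes that were bound, 6 lists had no bound member on X. None of 33 chemoreceptors, 34 neuropeptide genes, 24 ligand-gated channels, 10 twk potassium channels or 6 innexins was bound, nor any of 27 collagens, so that the limit set by a count of 0 (3 of the total) ran from 8.82% for neuropeptides to 50% for innexins. That limit was above 7.36% for all 6 lists, so a count of 0 does not place any of them below X genes as a whole. With few members, as for innexins and twk channels, a count of 0 is also near what 7.36% would give. On the autosomes the same lists were bound at 0 to 2.94%. Of 23 nuclear hormone receptor genes nhr-1 (38.5) and nhr-40 (27.5) were bound (8.70%, against 3.66% on the autosomes), and of 18 ceh homeobox genes ceh-39 and ceh-93 (40.2) were (11.1%, against 4.44%), both shares above that of all X genes but over 2 genes each.

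Of 6 X-linked genes of the sex-determination and dosage-compensation list, 2 were bound (33.3%, against 46.7% of its autosomal members), where 7.36% of all X genes were. The ONECUT homeobox gene ceh-39, which acts as an X-signal element in counting X chromosomes, had a peak 204 bp upstream with a signal of 164.6 in the pooled list, 57.2 in replicate 1 and 109.3 in replicate 2. The gene sdc-1, which encodes a zinc-finger protein of dosage compensation, had 30.5, 11.1 and 19.3 at 368 bp upstream. Promoter windows of fox-1, sex-1, sdc-2 and xol-1 held no summit. Of the synMuv B list lin-15B itself was bound and the heterochromatin protein gene hpl-1 was not. Of 6 heterochronic genes let-7 was bound (44.2 in the pooled list, 20.98 in replicate 1, 21.9 in replicate 2), and lin-14, hbl-1, daf-12, alg-1 and mir-84 were not (16.7% on X, against 20% of the autosomal members). Peaks outside the promoter windows do not enter this count. Introns of lin-14 held peaks of 26.99 and 24.9, 1969 and 6524 bp downstream of its nearest 5′ end. A peak of 71.7 lay 3393 bp upstream of alg-1, its nearest gene.

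Small RNA genes were counted by a summit in the same window at their own 5′ end. On X 37 of 276 tRNA genes (13.4%) had one, from 29 peaks, against 20.2% on the autosomes and 17.2% of all. The miRNA genes with one were 4 of 74, among them mir-54 and mir-55, which share a peak of 73.1, against 12.8% on the autosomes and 10.7% of all. The snoRNA genes with one were 2 of 33, against 28.8% on the autosomes and 26.6% of all.

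X summits were richer in G and C than autosomal ones. Mean GC content within 50 bp of the summit was 50.7% ± 6.67 (SD, n = 343 peaks) on X and 46.6% ± 7.25 (SD, n = 2988) on the autosomes, which ranged from 46.2 to 46.96%. In windows centred 300 bp to one side it was 34.0% on X and 35.2% on the autosomes, so the surroundings did not share the excess. Of X windows 270 (78.7%) were at or above the autosomal median, against 52.8% of autosomal windows, +25.9 points (Fisher's exact test, adjusted p = 1.06e-20).

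The excess was in width more than in height. At the summit itself a 21-bp window had 52.2% GC on X and 51.0% on the autosomes, while 100 bp away it was near 41.2% on X and near 35% on the autosomes. At promoters the mean was 51.7% on X and 45.8% on the autosomes, between genes 49.6 and 47.4%, in introns 48.7 and 48.3%, and in non-coding genes 50.9 and 50.5%. In the highest of the 5 signal groups it was 55.3% on X and 48.5% on the autosomes, and in the lowest 48.4 and 45.3%. On X 271 peaks (79.0%) had the one fixed width of 310 bp, against 63.0% on the autosomes, and the summits of such peaks are the middles of fixed intervals. Among peaks of other widths, whose summits were placed individually, the means were 54.1% on X (n = 72) and 47.6% on the autosomes (n = 1107), and the share at or above the autosomal median differed by +40.3 points.

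**Figure D4:**
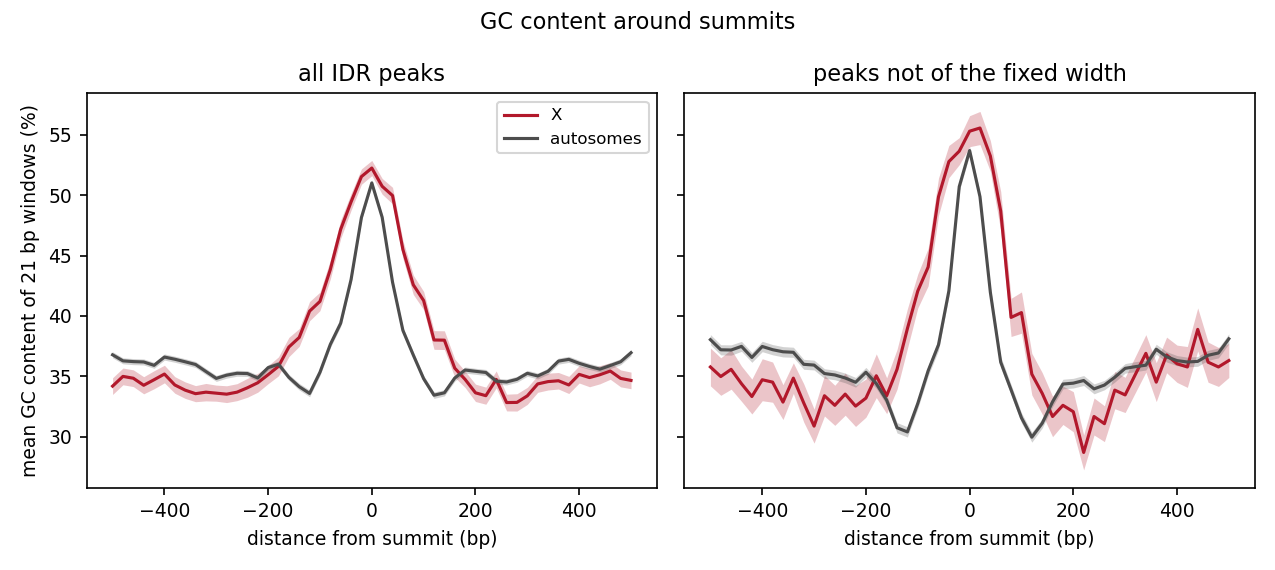
Mean GC content of 21-bp windows (y axis, %) by distance from the summit (x axis, bp) for X and autosomal IDR peaks, all peaks on the left and peaks not of the fixed width on the right, with bands of the standard error over peaks. The curves come close at the summit, 52.2% on X and 51.0% on the autosomes over all peaks, and the X curve is the wider.

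Short motifs at summits also differed. Of the 12 short motifs searched on both strands within 50 bp of the summit, 6 differed between X and autosomes past the threshold. Runs of T, TTTTTT, were present at 11.95% of X summits, against 25.7% of autosomal ones (Fisher's exact test, adjusted p = 2.89e-08 over 12 motifs), and in all windows of that length over X the share is 40.6%. Without replicate 1 the difference was -8.76 points, against -13.8 in the IDR list. TTTGAA, a form of the cell-cycle homology region, was present at 8.45% of X summits, against 20.1% (exact test, adjusted p = 1.38e-07), a difference of -11.6 points, and of -17.9 among peaks not of the fixed width. Of all windows, 29.25% on X and 29.1% on the autosomes have TTTGAA, so summits of both sets were below that share. The other form of that region, TTCGAA, was at 2.92%, against 7.40% (exact test, adjusted p = 0.00249), where 5.11% of all X windows and 6.56% of all autosomal windows have it. The TTCGAA difference was -4.48 points. In the 1665 highest peaks it was -4.985 points and did not pass the test (exact test, adjusted p = 0.0699). Nor did it pass among peaks not of the fixed width (-4.72 points, exact test, adjusted p = 0.386) or against chromosome V alone (-3.61 points, adjusted p = 0.0537). Each of these comparisons has fewer peaks. The repeat ACACAC was more frequent on X, 21.6% against 11.4% (exact test, adjusted p = 1.65e-06), where 3.94% of all X windows and 3.20% of all autosomal windows have it. Among peaks not of the fixed width that difference was +9.42 points (exact test, adjusted p = 0.0521).

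GAGAGA was the most frequent of the 12 at X summits, at 32.4%, against 26.2% on the autosomes (exact test, adjusted p = 0.0346) and 4.91% of all X windows. That difference, +6.12 points, did not pass the test in 4 alternatives. It was +2.72 points without replicate 1 and +3.59 without replicate 2 (exact test, adjusted p = 0.434 and 0.280). Without the loci of the transgene it was +5.82 points (exact test, adjusted p = 0.0545). Against chromosome V alone it was +6.89 points (exact test, adjusted p = 0.0678). The windows of lin-15B upstream and rpl-11.2 printed above contain it on one of the strands. The remaining 6, among them GCGCGC (11.1% of X summits, against 9.97%) and GCGCGA (9.62%, against 9.24%), did not pass the test, and the sign of these 2 and of CCGCCC and CACGTG changed under some alternatives. With windows of 100 bp to each side CCGCCC and the GATA site TGATAA also passed, both less frequent on X (exact test, adjusted p = 0.0352 and 0.00755).

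**Figure D5:**
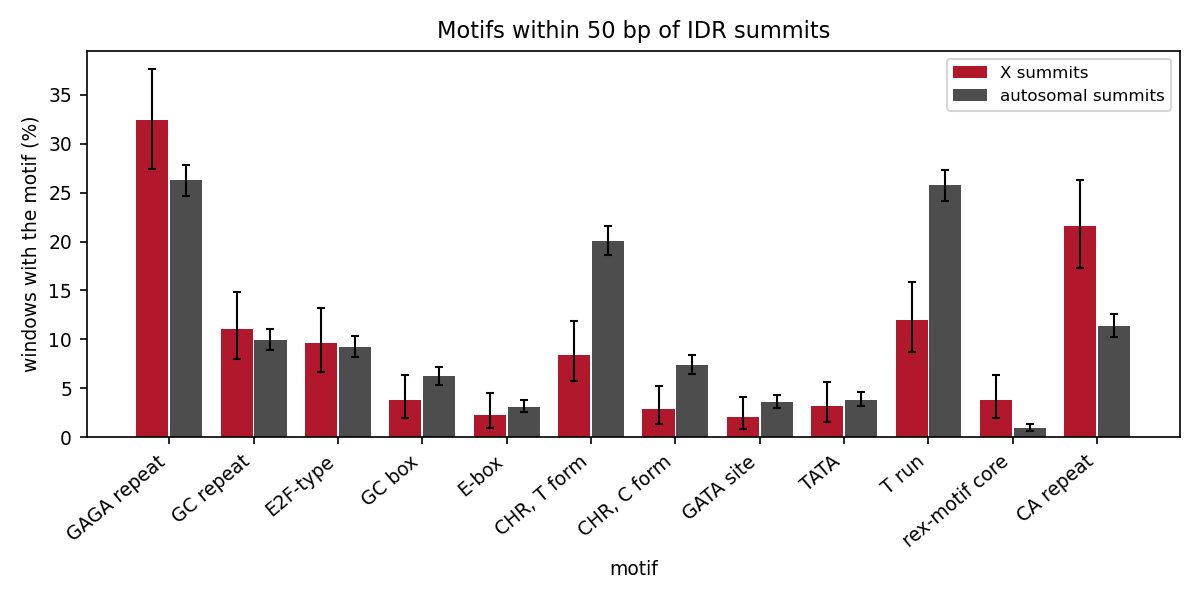
Share of windows of 50 bp to each side of the summit that contain each of the 12 motifs (y axis, %) for X and autosomal IDR peaks, with 95% exact intervals that cover counting error only. T runs stand at 11.95% on X and 25.7% on the autosomes, CA repeats at 21.6% and 11.4%, and the rex-motif core at 3.79% and 0.937%.

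The core of the rex motif, CGCAGGG, was the rarest of the 12 on the autosomes and more frequent on X. It was within 50 bp of 13 X summits (3.79%), against 28 autosomal ones (0.937%; exact test, adjusted p = 0.000422), while 0.156% of all X windows and 0.152% of all autosomal windows contain it. The difference did not pass the test in the 1665 highest peaks (+2.04 points, exact test, adjusted p = 0.140) or among peaks not of the fixed width (+0.21 points, adjusted p = 0.802). Without replicate 2 it was +1.57 points (exact test, adjusted p = 0.0373), against +2.85 in the IDR list. Of the 13 X summits 10 were outside promoter windows, and 4 were among the 1665 highest peaks, whereas 22 of the 28 autosomal summits were in promoter windows.

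The bases around the core also differed. Of the 14 matches at X summits 12 had G directly before the core and 9 had TCG, while of the 28 at autosomal summits 4 had G and 0 had TCG. The longer form, TCG directly before the core, was picked after these matches had been seen, and 9 of its 13 matches in X peaks were among them, so its counts are a description with no test. In the whole genome it occurs 19 times on X and 6 times on the autosomes. Of the 19 on X 13 (68.4%) lay in an IDR peak, although IDR peaks cover 0.549% of X, and 16 lay in a peak of the pooled list. Of the highest 3331 peaks of each replicate alone, those of replicate 1 contained 11 and those of replicate 2 contained 13. None of the 6 on the autosomes lay in an IDR or pooled peak.

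The core on its own was about as frequent on X as elsewhere, 17.0 per Mb against 16.1 per Mb on the autosomes. It lay in an IDR peak in 29 of 301 cases on X (9.63%), against 45 of 1329 (3.39%) on the autosomes.

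The 13 longer matches lay in 10 X peaks, none with its summit in a promoter window and 8 with it between genes. Their pooled signals ran from 26.7 to 76.2 with a median of 49.2, so they were not among the highest on X, and the best ranked 1128 in the IDR list. The highest was 3898 bp downstream of the gtr-1 start, with 76.2 in the pooled list, 40.1 in replicate 1 and 35.4 in replicate 2. Next was a peak near F22H10.2 with 67.1, 42.4 and 24.6. Of the 10 peaks 4 were higher in replicate 1, against 103 of the 341 X peaks found in both replicates. With so few peaks these shares are close, and they were not tested against each other.

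A peak between genes, 4918 bp upstream of xol-1, the switch gene of male fate, held 2 of the matches on opposite strands, 32 bp apart. Its signal was 32.1 in the pooled list, 17.8 in replicate 1 and 21.2 in replicate 2. The intergenic peak nearest to W02H3.3 (58.7 pooled, 33.6 and 21.5 in replicates 1 and 2) and the intronic peak in Y41G9A.17 (53.5, 27.1 and 19.6) also held 2 each. The others, with 1 match, were nearest to nspc-17 (51.4), F20B6.9 (46.99), ins-39 (40.7), mom-1 (40.3) and col-185 (26.7). The 6 matches outside IDR peaks were nearest to H11E01.3, aakg-4, ctbp-1, daf-12, Y62H9A.9 and svh-5, and the last 3 of these lay in weaker pooled peaks with signals of 5.94, 5.44 and 17.8. A match describes letters in the sequence, and binding of any other factor was not measured in these files.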

How the data were processed

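ChIP-seq peaks of eGFP-tagged LIN-15B came from 2 biological replicates of whole L3 larvae. The deposited text records describe 3 kinds of list on builds ce10 and ce11: peaks of each replicate against its control, peaks of both replicates pooled, and the pooled peaks that passed IDR. The pooled and single-replicate lists are labelled as peaks and background for input to IDR, and all their entries are called peaks here. The IDR threshold and the names and versions of the caller and aligner were not given in the sources used here. Peak signal is the authors' own deposited number, of unstated scale, so it served for order and description inside a list and for a view of both replicates at the same peaks. The q-value is the authors' deposited −log10 value and was not used for ranking. Read depth is unknown.

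The members, motifs and gene lists were chosen with earlier results of these data known. Shares among X and autosomal peaks were set against each other with Fisher's exact test, two-sided, adjusted by Benjamini-Hochberg over 6 general comparisons, 7 location classes or 12 motifs, at a threshold of 0.05. Exact 95% Clopper-Pearson intervals cover counting error only. Location came from Ensembl release 115 on WBcel235, the assembly of ce11. A summit in several of the 7 classes went to the promoter class first, then to exons, then to introns of protein-coding genes, and only then to non-coding genes. The non-coding class test, the 5 signal groups and the split by width were added after seeing the data. Named genes were those at the 20 highest X peaks, bound X members of the 18 gene lists (up to 4 of lists with over 20 X members), those at X peaks within 40000 bp of lin-15B, and the 3 X peaks on either side of the end of the IDR list; those at the closest pairs, at the widest replicate disagreements, at the highest non-coding genes and at CGCAGGG matches were chosen after their values were seen. The code was tested on simulated data. Scripts ran in Python 3.11.15 with scipy 1.17.1, matplotlib 3.10.9 and numpy 2.4.6.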

Additional observations from a re-analysis of the deposited data

How the results depend on the processing

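No difference that passed its threshold changed direction under any alternative run. Of the motifs that did not pass, the difference changed sign for GCGCGC (-0.011 without replicate 1 and 0.36 without replicate 2, -1.97 against chromosome V, -0.20 among other widths), GCGCGA (-1.19 without replicate 1, -0.26 without replicate 2, -1.81 in the stricter list, -0.057 without the transgene loci, -0.19 with windows of 100 bp to each side, -4.35 among other widths), CCGCCC (0.12 in the stricter list, 1.25 among other widths) and CACGTG (0.35 without replicate 1 and -0.37 without replicate 2), none of them past the threshold. In the stricter list of the 1665 highest peaks the X share of peaks was 7.63%, the promoter difference was -4.81 points (exact test, adjusted p = 0.478) and the intergenic difference +6.89 points (adjusted p = 0.354). The causes of these changes were not tested, and that list holds fewer peaks. The number of motifs past the threshold was 3 among peaks of other widths, an alternative added after seeing the data, against 6 in all peaks. Bound genes against chromosome V alone differed by -0.93 points (exact test, adjusted p = 0.159).

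With the list of 1 replicate in place of the IDR list (without replicate 1 or without replicate 2), the X share ran from 10.6 to 10.96%. The share of that replicate's own listed peaks that were among its highest 3331 differed by -5.74 to -5.41 points. Promoter differences ran from -10.9 to -8.45, intergenic from 8.31 to 10.1, shared windows from -20.8 to -19.8 and the highest 1665 from -16.7 to -15.2 points. Those of GC ran from 20.7 to 27.1, of spacing from -11.5 to -8.49 and of bound genes from -6.41 to -6.32 points. In each, 5 motifs passed the threshold. The difference in non-coding genes ran from 2.82 to 4.29, that of TTTTTT from -15.2 to -8.76 and that of CGCAGGG from 1.57 to 2.72 points. With windows of 100 bp to each side ACACAC differed by 17.6, CGCAGGG by 4.56 and TTCGAA by -7.43 points. The intron difference ran from -4.44 to -0.50 points and passed the threshold without replicate 2 (exact test, adjusted p = 0.0313). No paired analysis was possible because the series has 1 group. Depth limits are unknown, since the lists give no read counts.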
